A study of Homo sapiens with 4 samples.

Results

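The genes described here are the 37 genes of the human mitochondrial genome, taken as all genes of the count table whose symbol starts with MT-, out of 58735 genes in the table. They comprise 13 messenger RNA genes, 2 ribosomal RNA genes and 22 transfer RNA genes, and GENCODE release 29 places all 37 on the mitochondrial chromosome (chrM, build GRCh38) with these same gene types. RNA had been sequenced from ICAM1-high and ICAM1-low subsets of A549, a human lung adenocarcinoma line. Both subsets were of wild-type genotype and came from cells kept in serum-supplemented DMEM, stained with an antibody against the adhesion molecule ICAM1 and sorted by fluorescence. There were 2 ICAM1-high and 2 ICAM1-low libraries, made from Trizol-extracted total RNA with a SMARTer messenger RNA kit. The comparison asks how the subset with high surface ICAM1 differs from the subset with low surface ICAM1. The labels do not say if replicate libraries are separate cultures, and p-values therefore reflect only how much these 4 libraries vary, possibly for technical reasons.

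The mitochondrial genome is a small circle that is transcribed from both strands into long precursors, and these are cut at the transfer RNAs that lie between most of its genes. Its messenger RNAs encode core subunits of respiratory chain complexes I, III and IV and of the ATP synthase (complex V), and its ribosomal and transfer RNAs serve the ribosomes inside the organelle. All other subunits of these complexes, all of complex II, the proteins of the mitochondrial ribosome and the factors that copy, transcribe and process the mitochondrial genome come from nuclear genes.

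The libraries held 17638647 and 17271825 counts in ICAM1-high and 16665362 and 16272591 counts in ICAM1-low. ICAM1 itself had 2153 and 2028 counts in ICAM1-high, against 72 and 75 counts in ICAM1-low, which follows the sort. CDKN2A, a cell cycle inhibitor gene that A549 is known to lack, had 1009 and 1214 counts in ICAM1-high and 0 in both ICAM1-low libraries. CDKN2B, its neighbour, had 174 and 182 counts in ICAM1-high and 0 in both ICAM1-low libraries. MTAP, a methionine salvage gene of the same deleted region, had 459 and 463 counts in ICAM1-high and 1 and 8 in ICAM1-low. At these 3 genes both libraries labelled ICAM1-high go against the cell line label. Of 7 genes typical of A549, 3 were higher in ICAM1-high (KRT8, KRT18 and KRT19) and 4 lower (EPCAM, ALDH1A1, AKR1B10 and AKR1C3). Of all genes tested, 30.4% were called higher and 29.4% lower. The summed level of 10 fibroblast markers was 32.6 and 36.6 counts per 1e6 in ICAM1-high and 5.25 and 6.52 in ICAM1-low. Most of it was COL1A1, at 27.1 and 30.0 in ICAM1-high and 3.84 and 4.30 in ICAM1-low. COL1A2, COL3A1 and POSTN were at 0 in both ICAM1-high libraries and had at most 1 count in each ICAM1-low library. Of the 6 fibroblast markers tested, 4 were called higher and 0 lower: COL1A1, LUM, FAP and PDGFRB. LUM had 43 and 56 counts in ICAM1-high and 3 and 5 in ICAM1-low. FAP had 17 and 25 counts in ICAM1-high and 0 and 1 in ICAM1-low. PDGFRB had 11 and 15 counts in ICAM1-high and 0 and 5 in ICAM1-low. PDGFRA and THY1 were not called, and DCN was not tested. The sum of 8 endothelial markers was 23.5 and 26.8 in ICAM1-high and 4.99 and 3.72 in ICAM1-low, where VWF, KDR, ERG, TEK and TIE1 were at 0. Most of this sum was ENG, at 15.2 and 18.8 in ICAM1-high and 4.09 and 2.87 in ICAM1-low. The 4 endothelial markers tested, ENG, PECAM1, CDH5 and ERG, were all called higher, as 30.4% of all genes were. PECAM1 had 76 and 57 counts in ICAM1-high and 14 and 12 in ICAM1-low. CDH5 had 37 and 27 counts in ICAM1-high and 0 and 1 in ICAM1-low. ERG had 37 and 52 counts in ICAM1-high. VWF, KDR, TEK and TIE1 had too few counts to be tested, at most 5 in any library. The sum of 8 leukocyte markers was 26.02 and 24.8 in ICAM1-high and 18.6 and 19.2 in ICAM1-low, with PTPRC and CD3E at 0 in all 4 libraries. Of these markers, CD14 was higher in ICAM1-high, at 18.4 and 18.7 against 9.34 and 9.52 in ICAM1-low. ITGAM was lower in ICAM1-high, at 6.87 and 5.61 against 8.51 and 9.13 in ICAM1-low. The results all compare these same libraries, and the part that the differences in markers and deleted genes have in them was not tested. Fewer mitochondria, less RNA in each of them and a different mixture of cells cannot be told apart in bulk RNA.

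The 13 messenger RNA genes differ in how their reading frames end, which is shown first because the stop codon of many is completed only when a poly(A) tail is added. The last 21 bases of each gene, from the GENCODE release 29 transcripts on GRCh38, are as follows, with the bases of the last annotated codon in capitals.
MT-ND1: cagcattccccctcaaaccTA
MT-ND2: cttttatactaataatcttaT
MT-CO1: cccgtatacataaaatctAGA
MT-CO2: gggcccgtatttaccctaTAG
MT-ATP8: tcattgcccccacaatccTAG
MT-ATP6: tacctgcacgacaacacaTAA
MT-CO3: ccatctattgatgagggtctT
MT-ND3: aaggattagactgaaccgaaT
MT-ND4L: ctaaacctactccaatgcTAA
MT-ND4: tcattaccgggttttcctctT
MT-ND5: accctactcctaatcacaTAA
MT-ND6: gagattgctcgggggaatAGG
MT-CYB: acaaaatactcaaatgggccT

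Of the 13 genes, 7 ended in a complete last codon and 6 in an incomplete one, of which 5 ended in T alone and 1, MT-ND1, in TA. MT-ND6 is the only messenger RNA gene read from the minus strand.

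In ICAM1-high, 11 of the 13 messenger RNAs fell and none rose, relative to the bulk of the transcriptome. Of all 16250 genes tested, 29.4% were called lower. The messenger RNAs came down by modest and similar amounts, with a median log2 fold change of -0.24 (range -0.40 to -0.02), where the median of all genes tested was 0.012. MT-ND5 and MT-ND6, which are neighbours on the genome, were the pair that did not pass the test. Fold changes are ICAM1-high over ICAM1-low from edgeR's quasi-likelihood test with TMM scaling. A gene was called where its p, adjusted after Benjamini and Hochberg over all genes, was under 0.05. Levels are given as counts per 1e6 with TMM scaling (CPM).

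**Figure D1:**
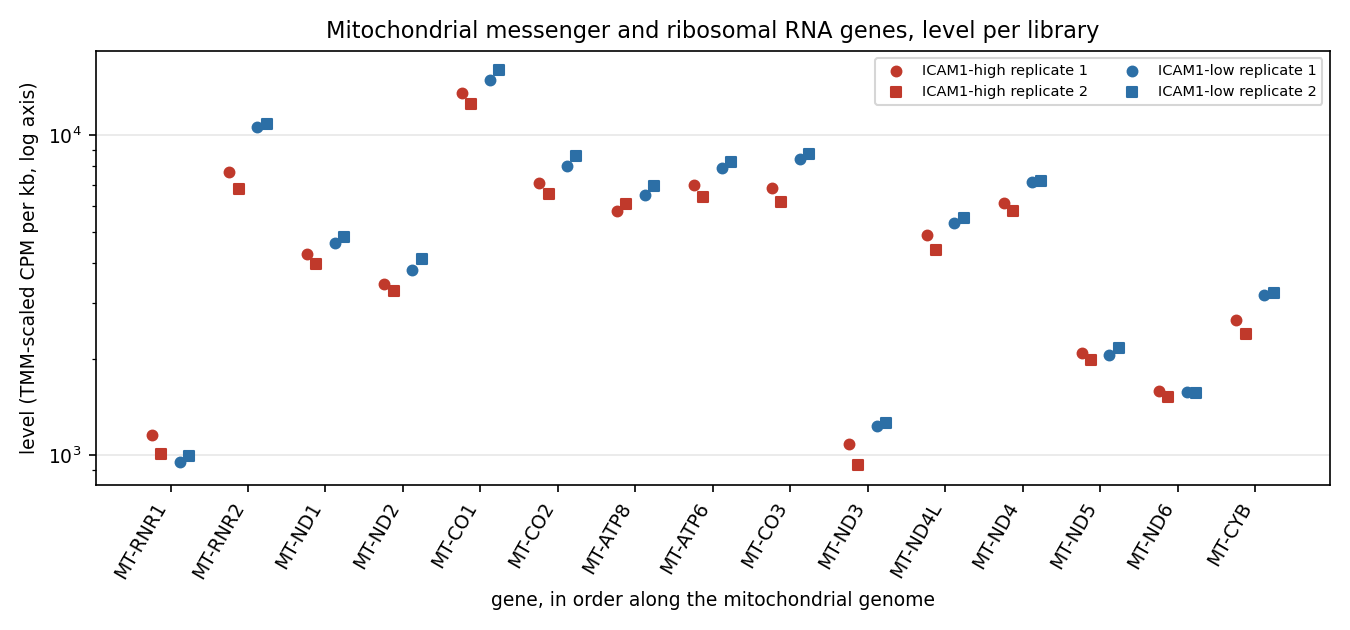
Level of the 13 messenger and 2 ribosomal RNA genes in TMM-scaled CPM per kb of gene on a log axis, in order along the genome, with 1 point for each of the 2 ICAM1-high and 2 ICAM1-low libraries. The ICAM1-high points lie below the ICAM1-low points for 11 messenger RNAs and MT-RNR2, overlap them for MT-ND5 and MT-ND6, and lie above them for MT-RNR1.

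The genes of complex IV, cytochrome c oxidase, held the most abundant of the messenger RNAs and the largest fall among them. MT-CO1, the catalytic subunit, had 20958.5 and 19361.5 CPM in ICAM1-high, against 22887 and 24591 CPM in ICAM1-low. MT-CO2, which receives electrons from cytochrome c, had 4858.5 and 4491 CPM in ICAM1-high, against 5466 and 5884 CPM in ICAM1-low. MT-CO3, the third core subunit, had 5362 and 4850 CPM in ICAM1-high, against 6613 and 6855 CPM in ICAM1-low. Both ICAM1-high libraries lay below both ICAM1-low libraries for all 3 genes. MT-CO3 fell by 0.40 on the log2 scale (SE 0.040, adjusted p = 1.74e-13), MT-CO2 fell by 0.28 (SE 0.040, adjusted p = 1.09e-08) and MT-CO1 fell by 0.24 (SE 0.041, adjusted p = 9.83e-07).

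MT-CYB encodes cytochrome b, the sole mitochondrially encoded subunit of complex III, which passes electrons on to cytochrome c. It had 3020 and 2723 CPM in ICAM1-high, against 3622 and 3659 CPM in ICAM1-low, with no overlap. After MT-CO3 this was the next largest fall among the messenger RNAs, at -0.34 on the log2 scale (SE 0.039, adjusted p = 2.17e-11).

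The ATP synthase genes MT-ATP8 and MT-ATP6 share 46 bases and are carried on a common transcript, so reads in the overlap may belong to either. The last 60 bases of MT-ATP8 (chrM:8513-8572, GRCh38, plus strand), are as follows, with the bases shared with MT-ATP6 in capitals.
MT-ATP8/MT-ATP6: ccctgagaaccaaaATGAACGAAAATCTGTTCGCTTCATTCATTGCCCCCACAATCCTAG

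MT-ATP6, which helps form the proton channel, had 4745.5 and 4381 CPM in ICAM1-high, against 5368.5 and 5639 CPM in ICAM1-low, and fell by 0.27 on the log2 scale (SE 0.039, adjusted p = 1.4e-08). MT-ATP8, a small membrane subunit, had 1198 and 1266 CPM in ICAM1-high, against 1349 and 1436 CPM in ICAM1-low, and fell by 0.18 (SE 0.039, adjusted p = 6.15e-05). Neither gene's libraries overlapped between subsets. Counts of MT-ATP8 per count of MT-ATP6 were 0.252 and 0.289 in ICAM1-high and 0.251 and 0.255 in ICAM1-low, and the ranges of this ratio overlapped (exact two-sided permutation p = 0.667).

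Of the 7 complex I genes, which encode membrane subunits of NADH dehydrogenase, 5 fell. MT-ND1 had 4074 and 3780 CPM in ICAM1-high, against 4393 and 4582 CPM in ICAM1-low, and fell by 0.19 on the log2 scale. MT-ND2 had 3582 and 3386 CPM in ICAM1-high, against 3958 and 4272 CPM in ICAM1-low, and fell by 0.24. MT-ND3, the least abundant messenger RNA, had 376 and 322.5 CPM in ICAM1-high, against 428 and 436 CPM in ICAM1-low, and fell by 0.31. The libraries of the subsets were apart for each of these, with adjusted p = 1.43e-05 for MT-ND1, 2.48e-07 for MT-ND2 and 1.06e-06 for MT-ND3. MT-ND4L and MT-ND4 also share a transcript and overlap by 7 bases, as the last 60 bases of MT-ND4L (chrM:10707-10766, GRCh38, plus strand) show, with the shared bases in capitals.
MT-ND4L/MT-ND4: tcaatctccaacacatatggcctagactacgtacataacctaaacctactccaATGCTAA

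MT-ND4 had 8492 and 8009 CPM in ICAM1-high, against 9816.5 and 9939 CPM in ICAM1-low, and fell by 0.26 on the log2 scale (SE 0.038, adjusted p = 1.48e-08). MT-ND4L had 1445 and 1302 CPM in ICAM1-high, against 1581 and 1639.5 CPM in ICAM1-low, and fell by 0.23 (SE 0.040, adjusted p = 1.22e-06). The libraries did not overlap for either gene. Their ratio, MT-ND4L over MT-ND4, was 0.170 and 0.163 in ICAM1-high and 0.161 and 0.165 in ICAM1-low, with overlap (exact two-sided permutation p = 0.667).

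MT-ND5, the largest complex I gene, had 3773 and 3598 CPM in ICAM1-high, against 3727 and 3929 CPM in ICAM1-low. MT-ND6 had 830.5 and 798 CPM in ICAM1-high, against 825 and 822 CPM in ICAM1-low. The subsets overlapped for both genes, and the log2 fold changes were -0.055 for MT-ND5 (SE 0.038, adjusted p = 0.213) and -0.017 for MT-ND6 (SE 0.038, adjusted p = 0.733). The genes with an incomplete last codon, with log2 fold changes of -0.40 to -0.19, were all 6 called lower. Of those with a complete last codon 5 of 7 were called lower, at -0.28 to -0.017, where 29.4% of all genes were. With scaling by library size only, MT-CO3, MT-ND3, MT-ND4 and MT-CYB of the incomplete class stayed lower. Of the complete class MT-CO2 and MT-ATP6 did, while MT-ND5 and MT-ND6 were called higher. That scaling called 19.2% of all genes lower and 41.4% higher. MT-ND5 and MT-ND6 are both among the genes with a complete last codon, and the difference between these classes was not tested.

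**Figure D2:**
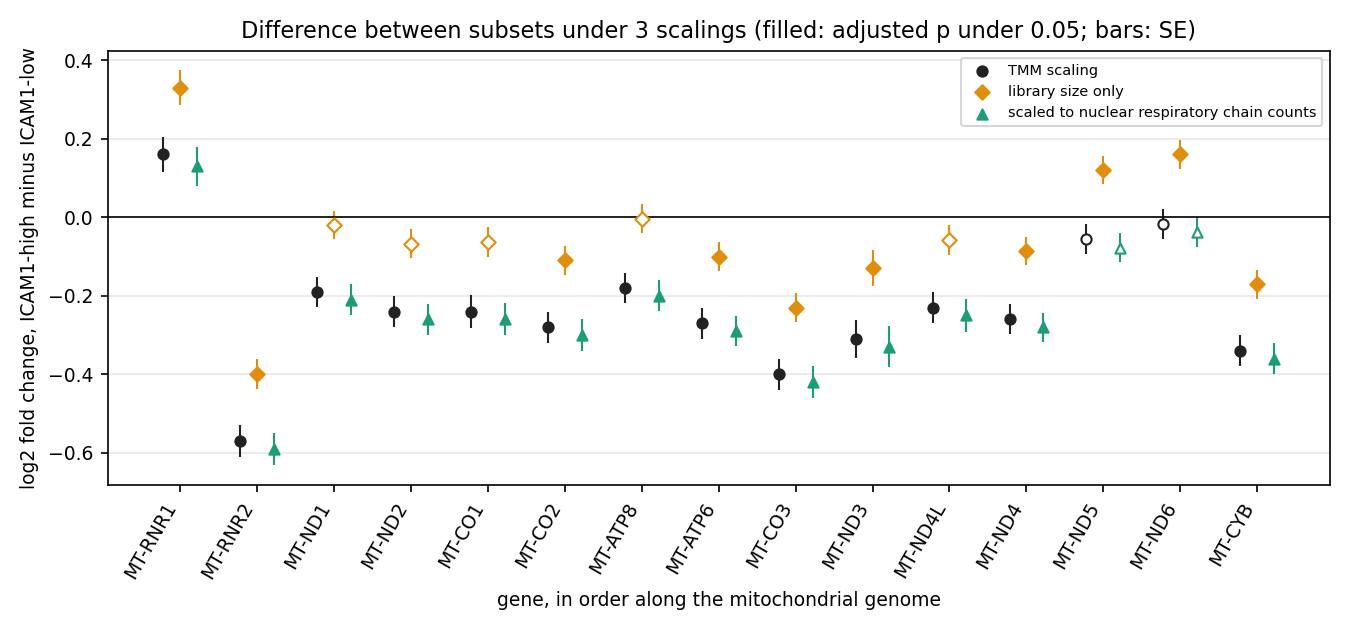
Log2 fold change, ICAM1-high over ICAM1-low, of the messenger and ribosomal RNA genes with SE bars, under TMM scaling, scaling by library size only and scaling to the nuclear respiratory chain counts; filled symbols have an adjusted p under 0.05. Library size only moves every gene up by a like amount, which puts MT-ND5 at 0.12 and MT-ND6 at 0.16. It leaves MT-RNR2 and the other messenger RNAs below 0, the nearest being MT-ATP8 at -0.0034.

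How far the messenger RNAs fell depended on the scaling. Scaling by library size only moved the median of all genes up by 0.17 on the log2 scale, to 0.19. It called 41.4% of all genes higher and 19.2% lower, 60.7% together. Under it, 6 messenger RNAs stayed lower (MT-CO2, MT-ATP6, MT-CO3, MT-ND3, MT-ND4 and MT-CYB), 5 were not called (MT-ND1, MT-ND2, MT-CO1, MT-ATP8 and MT-ND4L) and 2 turned higher. These were MT-ND5, at 0.12 (adjusted p = 0.00266), and MT-ND6, at 0.16 (adjusted p = 1.35e-04). The median of the 13 was then -0.067. MT-CO3 was at -0.23 on the log2 scale (adjusted p = 3.18e-07), and MT-CYB was at -0.17 (adjusted p = 5.77e-05).

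As a share of all counts, the 13 messenger RNAs made up 6.63% and 6.20% in ICAM1-high and 6.57% and 6.95% in ICAM1-low. These shares overlapped (means of 6.41% ± 0.305 in ICAM1-high and 6.76% ± 0.265 in ICAM1-low, SD, n = 2 each; exact two-sided permutation p = 0.667). The exact binomial 95% intervals reach at most 0.012 points to either side, so counting error is small beside the difference between libraries of a subset; these intervals cover counting error only. On the share of all counts, 7 of the 13 messenger RNAs did not overlap between subsets. MT-ATP6, MT-CO3, MT-ND3, MT-ND4 and MT-CYB had ICAM1-high libraries below ICAM1-low, as 27% of all genes tested did. MT-ND5 and MT-ND6 had ICAM1-high libraries above ICAM1-low, as 51.8% of all genes did. On TMM-scaled levels, 11 messenger RNAs had ICAM1-high libraries below ICAM1-low without overlap, against 38.3% of all genes. The libraries of a subset also differed in a shared direction: replicate 1 was above replicate 2 of ICAM1-high in 12 of 13 messenger RNAs, with a median log2 difference of 0.11, and replicate 1 of ICAM1-low was above its replicate 2 in 1 of 13, with a median of -0.061.

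Ratios within a library do not depend on its scaling. Counts of the 13 mitochondrial messenger RNAs per count of the 76 nuclear respiratory chain genes were 9.91 and 9.19 in ICAM1-high and 11.1 and 11.96 in ICAM1-low. The 76 nuclear genes alone made up 0.668% and 0.674% of all counts in ICAM1-high, against 0.593% and 0.581% in ICAM1-low. On TMM-scaled levels their sum was 6326 and 6342 CPM in ICAM1-high, against 6317 and 6161 CPM in ICAM1-low. The mean ratio of mitochondrial to nuclear counts was 0.829 times as high in ICAM1-high as in ICAM1-low, with no overlap between subsets. With 2 libraries against 2, an exact two-sided permutation test cannot go below p = 0.333, which is what it gave here. In all, 19 such shares and ratios were compared, and the value adjusted over them was 0.422 for each that did not overlap. This ratio was chosen as a scale after the data were seen, and with it in place of TMM the same 11 messenger RNAs were called lower, against 30.7% of all genes lower and 59.6% called in either direction.

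**Figure D3:**
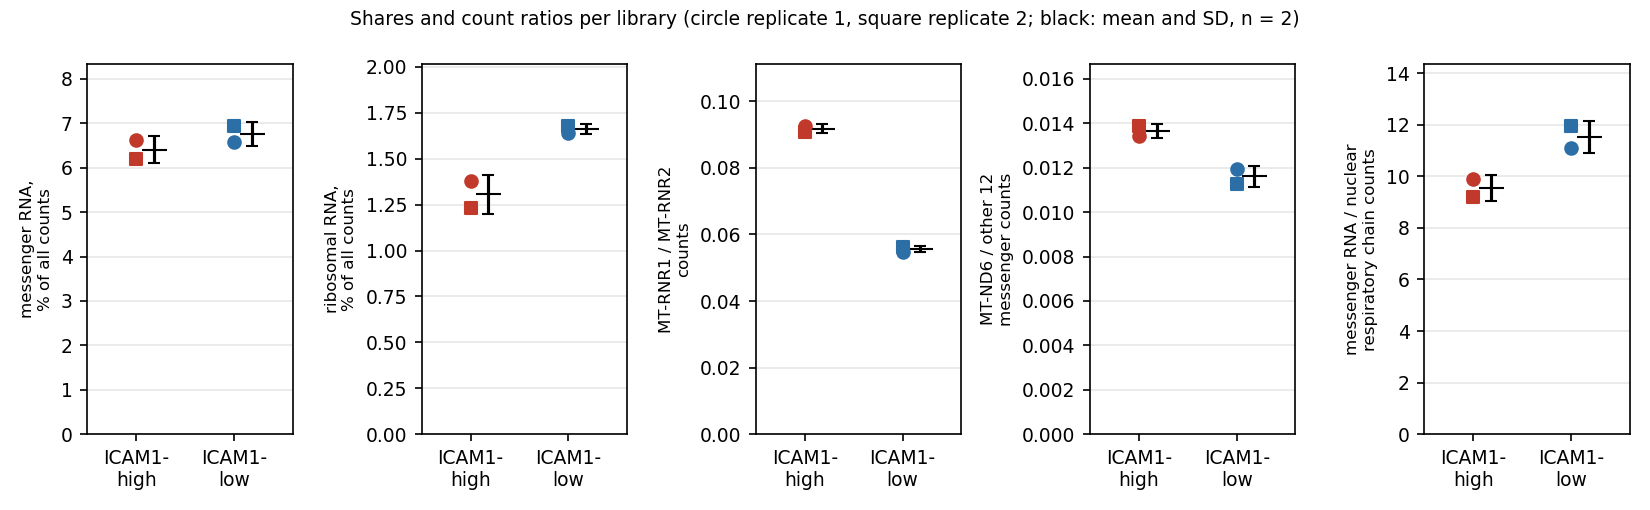
Shares of all counts (messenger and ribosomal RNA, in percent) and count ratios within each of the 2 ICAM1-high and 2 ICAM1-low libraries, with the mean and SD in black. The messenger RNA shares overlap, while ICAM1-high lies above ICAM1-low for MT-RNR1 over MT-RNR2 and for MT-ND6 over the other 12 messenger RNAs, and below it for the ribosomal share and for mitochondrial messenger over nuclear respiratory chain counts.

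The ratio was lower in ICAM1-high for each complex that has mitochondrially encoded subunits. Mitochondrial over nuclear counts were 12.9 and 11.98 in ICAM1-high and 14.5 and 15.3 in ICAM1-low for complex I. For complex III they were 3.23 and 2.84 in ICAM1-high and 3.62 and 3.57 in ICAM1-low. Complex IV had 31.2 and 29.4 in ICAM1-high and 32.9 and 36.7 in ICAM1-low, and complex V had 2.68 and 2.56 in ICAM1-high and 3.09 and 3.39 in ICAM1-low. None of the 4 ratios overlapped between subsets (exact two-sided permutation p = 0.333 for each, the smallest possible). As a share of all counts, mitochondrial genes of complex I made up 2.385% and 2.254% in ICAM1-high and 2.32% and 2.415% in ICAM1-low. Those of complex IV made up 3.294% and 3.052% in ICAM1-high and 3.28% and 3.518% in ICAM1-low. Both of these shares overlapped between subsets, and those of complexes III and V did not.

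MT-ND5 and MT-ND6, the pair that was not called lower, are set against the other messenger RNAs as a description, since the pair was chosen after its values were seen. Together they made up 7.34% and 7.55% of messenger counts in ICAM1-high and 6.50% and 6.45% in ICAM1-low, with no overlap. Counts of MT-ND5 per count of MT-ND4, which lies upstream of it on the same strand, were 0.444 and 0.449 in ICAM1-high and 0.380 and 0.395 in ICAM1-low. Counts of MT-ND6 per count of the other 12 were 0.0134 and 0.0139 in ICAM1-high and 0.0119 and 0.0113 in ICAM1-low. MT-CO1 by contrast made up 33.4% and 33.2% of messenger counts in ICAM1-high and 32.7% and 33.4% in ICAM1-low, which overlapped. When libraries were scaled to the sum of the 13 messenger RNAs, MT-ND5 was higher in ICAM1-high by 0.19 on the log2 scale (SE 0.080, adjusted p = 0.0282) and MT-ND6 by 0.23 (SE 0.083, adjusted p = 0.0116), and no messenger RNA was lower. On this scale 42.6% of all genes were called higher and 13.2% lower, 55.8% together. The call of MT-ND5 was lost on leaving out any 1 of the 4 libraries, with adjusted p of 0.116 to 0.224, and that of MT-ND6 on leaving out any except ICAM1-high replicate 1, without which its adjusted p was 0.0452. No source used here gives the strand setting of the counting, so reads of MT-ND6 and of transcripts from the opposite strand cannot be told apart.

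The 2 ribosomal RNAs moved in opposite directions. MT-RNR2, the large ribosomal RNA (chrM:1671-3229), had 11941 and 10620 CPM in ICAM1-high, against 16593 and 16866 CPM in ICAM1-low. MT-RNR1, the small ribosomal RNA (chrM:648-1601), had 1106 and 964 CPM in ICAM1-high, against 910 and 947 CPM in ICAM1-low. The subsets did not overlap for either gene, although for MT-RNR1 the lower ICAM1-high library lay close to the higher ICAM1-low library. Of all genes tested, 40.1% had ICAM1-high libraries above ICAM1-low without overlap on this scale, and 51.8% on the share of all counts, where MT-RNR1 also did. MT-RNR2 fell by 0.57 on the log2 scale (SE 0.041, adjusted p = 3.39e-18), the largest change among the messenger and ribosomal RNAs, and MT-RNR1 rose by 0.16 (SE 0.045, adjusted p = 0.00291). Among all genes, 59.7% were called in either direction.

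MT-RNR2 was called lower under every scaling and test tried, at -0.40 by library size only (adjusted p = 3.63e-13) and at -0.32 relative to the mitochondrial messenger RNA sum (adjusted p = 9.23e-05). The call of MT-RNR1 was lost in DESeq2 (adjusted p = 0.234) and on leaving out ICAM1-high replicate 1, where the log2 fold change was 0.047 (adjusted p = 0.198), or ICAM1-low replicate 1, where it was 0.12 (adjusted p = 0.0938). Relative to the messenger RNA sum it was higher by 0.40 (SE 0.083, adjusted p = 4.52e-06).

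MT-RNR1 counts per MT-RNR2 count were 0.0927 and 0.0908 in ICAM1-high and 0.0549 and 0.0562 in ICAM1-low. The mean ratio was thus 1.65 times as high in ICAM1-high, and the libraries of each subset lay close together, at 0.0917 ± 0.00132 in ICAM1-high and 0.0555 ± 0.000914 in ICAM1-low (SD, n = 2 each; exact two-sided permutation p = 0.333, the smallest possible). Ribosomal counts per messenger count were 0.208 and 0.199 in ICAM1-high and 0.250 and 0.242 in ICAM1-low, also without overlap. The ribosomal RNAs made up 1.38% and 1.23% of all counts in ICAM1-high and 1.64% and 1.68% in ICAM1-low. Since the libraries were made with a messenger RNA kit, the share of each ribosomal RNA that entered the library is not known. The genes were similar in base content, with 33.0% A and a longest run of 6 A in the 954 bases of MT-RNR1, and 35.1% A and a longest run of 7 A in the 1559 bases of MT-RNR2.

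Per kilobase of gene, the order of levels was led by MT-CO1, at 13074 ± 732 CPM per kb in ICAM1-high and 15395 ± 782 in ICAM1-low (SD, n = 2 each). MT-RNR2 came next, at 7236 ± 599 CPM per kb in ICAM1-high and 10731 ± 124 in ICAM1-low. In ICAM1-high, MT-CO2 (6835 ± 380), MT-ATP6 (6701 ± 379) and MT-CO3 (6513 ± 461) came close below MT-RNR2. Steps between these neighbours were smaller than the SD of MT-RNR2, but the order was the same within each ICAM1-high library. There MT-RNR2 was at 7660 and 6812, MT-CO2 at 7103 and 6566, MT-ATP6 at 6968.5 and 6433, and MT-CO3 at 6839 and 6187. In ICAM1-low MT-RNR2 stood above them, with MT-CO3 at 8589 ± 218, MT-CO2 at 8296 ± 432 and MT-ATP6 at 8082 ± 281 CPM per kb. The lowest messenger RNA was MT-ND3, at 1009 ± 109 CPM per kb in ICAM1-high and 1247 ± 16.6 in ICAM1-low. MT-RNR1 stood near it, at 1085 ± 105 in ICAM1-high and 973 ± 27.3 in ICAM1-low, far below the other ribosomal RNA in both subsets.

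The 22 transfer RNA genes were sparsely covered, with 0.0325% and 0.0285% of all counts in ICAM1-high and 0.0325% and 0.0347% in ICAM1-low. Of these, 20 passed the expression filter. MT-TF, with 0 and 1 counts in ICAM1-high and 2 and 0 in ICAM1-low, and MT-TA, with 8 and 14 counts in ICAM1-high and 5 and 8 in ICAM1-low, did not. In ICAM1-high 6 transfer RNAs fell and 1 rose, against 29.4% and 30.4% of all genes, and the median log2 fold change of the 20 was -0.28. The sequences of the 7 that were called are given because each decodes a different amino acid, with the anticodon in capitals, from GENCODE release 29 on GRCh38 and read along the gene's own strand.
MT-TL1 (chrM:3230-3304, plus strand): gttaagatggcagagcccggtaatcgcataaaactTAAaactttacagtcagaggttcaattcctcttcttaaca
MT-TI (chrM:4263-4331, plus strand): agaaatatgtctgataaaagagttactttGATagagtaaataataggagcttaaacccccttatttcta
MT-TW (chrM:5512-5579, plus strand): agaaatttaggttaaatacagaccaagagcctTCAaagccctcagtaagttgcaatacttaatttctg
MT-TN (chrM:5657-5729, minus strand): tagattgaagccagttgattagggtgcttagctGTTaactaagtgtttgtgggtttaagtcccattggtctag
MT-TC (chrM:5761-5826, minus strand): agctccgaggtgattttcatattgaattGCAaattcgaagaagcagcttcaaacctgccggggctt
MT-TP (chrM:15956-16023, minus strand): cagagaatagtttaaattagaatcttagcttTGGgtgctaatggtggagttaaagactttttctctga
MT-TH (chrM:12138-12206, plus strand): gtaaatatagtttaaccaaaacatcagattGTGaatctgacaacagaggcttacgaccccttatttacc

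Most transfer RNA counts came from the 8 genes on the minus strand, with 81.5% and 80.0% in ICAM1-high and 83.7% and 83.5% in ICAM1-low. The libraries were made with a messenger RNA kit and the strand setting is not known. In these counts, cut transfer RNAs, uncut precursors and transcripts of the opposite strand cannot be told apart. The counts of the 3 most abundant minus-strand genes, MT-TP, MT-TC and MT-TN, for proline, cysteine and asparagine, all fell. MT-TP had 88.2 and 75.4 CPM in ICAM1-high, against 111 and 120 CPM in ICAM1-low. MT-TC had 77.1 and 65.0 CPM in ICAM1-high, against 86.5 and 92.1 CPM in ICAM1-low. MT-TN had 69.0 and 58.9 CPM in ICAM1-high, against 76.4 and 78.7 CPM in ICAM1-low. None of the 3 overlapped between subsets on this scale, where 38.3% of all genes were lower without overlap. On the share of all counts MT-TC and MT-TN overlapped and MT-TP did not, and 27.0% of all genes were lower without overlap. MT-TP fell by 0.50 on the log2 scale (SE 0.061, adjusted p = 2.53e-10), MT-TC by 0.33 (SE 0.064, adjusted p = 1.22e-05) and MT-TN by 0.28 (SE 0.065, adjusted p = 1.89e-04). By library size only MT-TN was not called (adjusted p = 0.156). MT-TP and MT-TC remained called in all 14 alternatives, and MT-TP was also lower relative to the messenger RNA sum, at -0.25 (adjusted p = 0.0141), though not without ICAM1-high replicate 2 (adjusted p = 0.134), ICAM1-low replicate 1 (adjusted p = 0.0761) or ICAM1-low replicate 2 (adjusted p = 0.14).

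**Figure D4:**
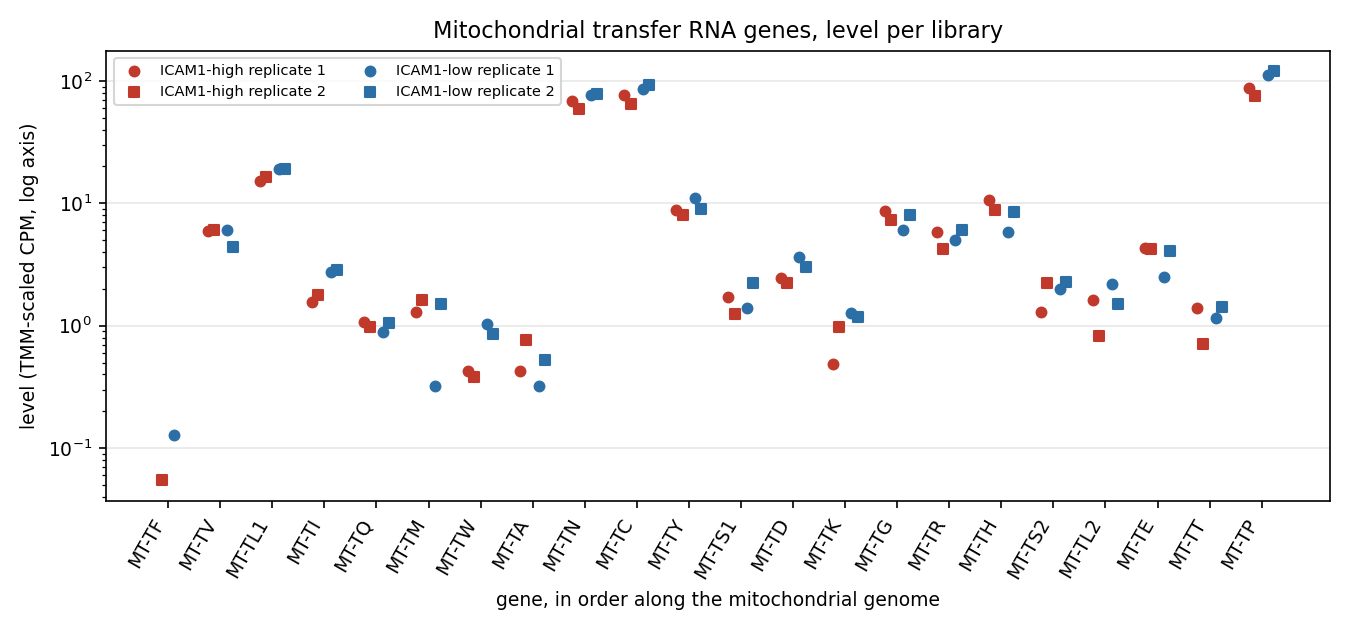
Level of the 22 mitochondrial transfer RNA genes in TMM-scaled CPM on a log axis, in order along the genome, with 1 point for each of the 2 ICAM1-high and 2 ICAM1-low libraries; libraries with 0 counts are not drawn. MT-TP, MT-TC and MT-TN, all on the minus strand, stand above the other transfer RNAs, and each has both ICAM1-high points below both ICAM1-low points.

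The other calls rested on few counts. MT-TL1, for leucine, had 282 and 304 counts in ICAM1-high and 296 and 294 in ICAM1-low, and fell by 0.27 on the log2 scale after TMM scaling (adjusted p = 0.0313). MT-TI, for isoleucine, had 29 and 33 counts in ICAM1-high and 43 and 44 in ICAM1-low (log2 fold change -0.74, adjusted p = 0.0249), and MT-TW, for tryptophan, had 8 and 7 counts in ICAM1-high and 16 and 13 in ICAM1-low (log2 fold change -1.19, adjusted p = 0.0447). MT-TH, for histidine, was the transfer RNA that rose, with 200 and 161 counts in ICAM1-high and 91 and 130 in ICAM1-low (log2 fold change 0.45, SE 0.16, adjusted p = 0.0147). The calls of MT-TL1 and MT-TI were lost in 5 of 14 alternatives each. By library size only MT-TL1 was at -0.093 (adjusted p = 0.484) and MT-TI at -0.57 (adjusted p = 0.0889). Both calls were also lost in DESeq2 and on omission of ICAM1-high replicate 1 or of either ICAM1-low library. These omissions gave log2 fold changes of -0.28 to -0.21 for MT-TL1 and -0.78 to -0.65 for MT-TI. The call of MT-TW was lost in 8 of 13 alternatives, among them the omission of any 1 library, at -1.33 to -1.06. That of MT-TH was lost in 3 of 14: in DESeq2 (adjusted p = 0.131), without ICAM1-high replicate 1 (adjusted p = 0.2) and without ICAM1-low replicate 1 (adjusted p = 0.4). By library size only, 2 transfer RNAs were lower (MT-TC and MT-TP) and 2 higher (MT-TH and MT-TE). MT-TE, which carries glutamate and lies beside MT-ND6 on the minus strand, had 81 and 78 counts in ICAM1-high and 39 and 63 in ICAM1-low. With TMM scaling the log2 fold change of MT-TE was 0.38 (adjusted p = 0.158). Relative to the messenger RNA sum it was 0.63 (adjusted p = 0.0205), and omission of ICAM1-high replicate 2 (adjusted p = 0.0784) or of ICAM1-low replicate 1 (adjusted p = 0.344) ended this call, as did DESeq2 (adjusted p = 0.14). MT-TH was at 0.70 relative to the messenger RNA sum (adjusted p = 2.17e-04), or at 0.48 without ICAM1-low replicate 1 (adjusted p = 0.0599). It lies directly upstream of the other serine and leucine transfer RNAs that precede MT-ND5. MT-TM and MT-TG, for methionine and glycine, were also higher relative to the messenger RNA sum, but both calls were lost in DESeq2 and on leaving out ICAM1-high replicate 1 or ICAM1-low replicate 1, and that of MT-TM also without ICAM1-high replicate 2. MT-TM had 24 and 30 counts in ICAM1-high and 5 and 23 in ICAM1-low, which overlapped when scaled. With TMM scaling the 13 transfer RNAs tested but not called had log2 fold changes of -0.74 (MT-TK) to 0.69 (MT-TM).

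Nuclear copies of mitochondrial genes can take or give reads, and no source used here says how reads matching several places were counted. The 417 copies in the table had counts that came to 1.00% and 1.08% of the mitochondrial counts in ICAM1-high and 0.883% and 0.87% in ICAM1-low. MTATP6P1 had 7132 and 7129 counts in ICAM1-high and 6468 and 6578 in ICAM1-low, which is 8.06% and 8.86% of MT-ATP6 in ICAM1-high and 7.71% and 7.61% in ICAM1-low. MTND2P28 had 7.22% and 7.54% of the counts of MT-ND2 in ICAM1-high and 7.27% and 6.97% in ICAM1-low. Both fell, at log2 fold changes of -0.13 (adjusted p = 0.00467) for MTATP6P1, where MT-ATP6 was at -0.27, and of -0.19 (adjusted p = 1.21e-04) for MTND2P28, where MT-ND2 was at -0.24. By library size only neither copy was called, at 0.045 (adjusted p = 0.325) for MTATP6P1 and -0.014 (adjusted p = 0.785) for MTND2P28. MTCO1P12, a chromosome 1 copy of MT-CO1 that was chosen after its values were seen, went the other way, with 1707 and 1666 counts in ICAM1-high and 678 and 638 in ICAM1-low. It rose by 1.10 on the log2 scale (SE 0.065, adjusted p = 2.24e-24) but held under 1% of the counts of MT-CO1, at 0.437% and 0.469% in ICAM1-high and 0.189% and 0.169% in ICAM1-low. Adding the copies to the genes they copy left the same 11 messenger RNAs called.

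The nuclear genes that work with these transcripts went in both directions, in lists drawn up with other results of these data known. Of the 76 nuclear respiratory chain genes, 22 rose and 17 fell, with a median log2 fold change of 0.023, against 30.4% and 29.4% of all genes and a median of 0.012. By library size only, 43 were higher and 6 lower, against 41.4% and 19.2% of all genes. Complex I had 12 higher and 5 lower of 37, complex V 5 higher and 2 lower of 15, complex III 2 higher and 4 lower of 9, with a median of -0.13, and complex IV 1 higher and 6 lower of 11. In complexes III and IV the nuclear and the mitochondrial genes thus had medians of the same sign. In complex IV these were -0.15 for the 11 nuclear and -0.28 for the 3 mitochondrial genes, and by library size only 0.025 and -0.11. In complex III they were -0.13 for the 9 nuclear genes and -0.34 for MT-CYB, and by library size only 0.041 and -0.17. The medians had opposite signs in complex I, at 0.038 nuclear and -0.23 mitochondrial, and in complex V, at 0.11 and -0.22. SDHA, the flavoprotein of complex II, which has no mitochondrially encoded subunit, had 183.5 and 200.5 CPM in ICAM1-high and 122.5 and 127.7 in ICAM1-low, and rose by 0.62 (adjusted p = 1.71e-17). Among complex I subunits, NDUFS6 rose by 0.54 (adjusted p = 1.1e-10), while NDUFS4 fell by 0.62 (adjusted p = 1.15e-09) and NDUFA10 fell by 0.48 (adjusted p = 9.71e-12).

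**Figure D5:**
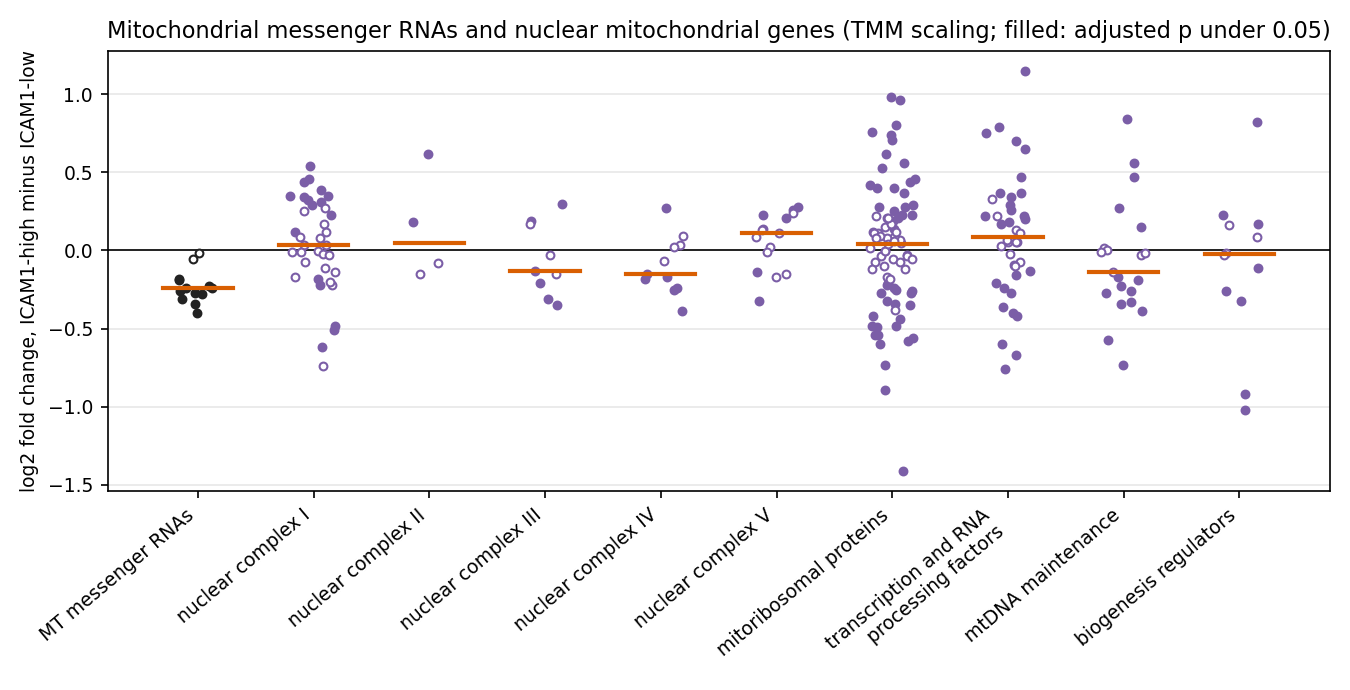
Log2 fold change with TMM scaling, ICAM1-high over ICAM1-low, of the mitochondrial messenger RNAs and of the nuclear gene lists, with 1 point for each gene tested (filled where the adjusted p was under 0.05) and a bar at the median. The mitochondrial messenger RNAs lie below 0, with a median of -0.24, while the nuclear lists spread to both sides of 0.

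Of 40 factors that transcribe the mitochondrial genome or process its RNA, 16 rose and 11 fell, with a median of 0.092, where 30.4% of all genes rose and 29.4% fell. The smallest adjusted p among them was that of LRPPRC, which binds mitochondrial messenger RNAs and keeps them stable and polyadenylated. LRPPRC had 348 and 340 CPM in ICAM1-high, against 587.5 and 575 CPM in ICAM1-low. It fell by 0.76 on the log2 scale (SE 0.040, adjusted p = 7.43e-27), and the subsets lay far apart. TRNT1, which adds the CCA end to transfer RNAs, fell by 0.67 (adjusted p = 2.18e-12). DHX30, a helicase of mitochondrial ribosome assembly, rose by 0.70 (adjusted p = 4.06e-18), and FASTKD3, a member of a family of mitochondrial RNA-binding proteins, rose by 1.15 (adjusted p = 5.72e-15). By library size only, 23 of the 40 were higher and 4 lower, against 41.4% and 19.2% of all genes, and LRPPRC, TRNT1, DHX30 and FASTKD3 kept their calls.

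Of the 80 mitochondrial ribosomal protein genes tested, of 81 listed, 24 rose and 23 fell, with a median of 0.044, against 30.4% and 29.4% of all genes. By library size only 41 were higher and 15 lower, against 41.4% and 19.2% of all genes. The smallest adjusted p values were those of MRPS16, which fell by 0.73 (adjusted p = 9.59e-21), MRPL23, which fell by 1.41 (adjusted p = 2.26e-19), MRPL33, which fell by 0.89 (adjusted p = 4.18e-18), and MRPL3, which rose by 0.62 (adjusted p = 2.72e-16). Of 21 factors that copy or maintain mitochondrial DNA, 5 rose and 10 fell, with a median of -0.14, against 30.4% and 29.4% of all genes, and by library size only 7 were higher and 5 lower, against 41.4% and 19.2%. POLG, the catalytic subunit of the mitochondrial DNA polymerase, rose by 0.56 (adjusted p = 2.65e-12), and ATAD3A, a membrane ATPase linked to nucleoids, rose by 0.84 (adjusted p = 2.98e-10). DGUOK, which supplies purine nucleotides inside mitochondria, fell by 0.73 (adjusted p = 4.46e-16), and RNASEH1, which removes RNA primers, fell by 0.39 (adjusted p = 2.05e-07).

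Of 12 regulators of mitochondrial biogenesis tested, of 13 listed, 3 rose and 5 fell, with a median of -0.024, against 30.4% and 29.4% of all genes. By library size only 6 were higher and 2 lower, against 41.4% and 19.2%. The coactivator gene PPARGC1B rose by 0.82 (adjusted p = 2.16e-09) and MYC rose by 0.23 (adjusted p = 1.28e-05). SIRT1, a deacetylase, fell by 1.02 (adjusted p = 1.58e-21), and GABPB1, a subunit of the transcription factor NRF2/GABP, fell by 0.92 (adjusted p = 3.01e-16). The number of mitochondrial genomes per cell was not measured.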

How the data were processed

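The authors deposited a single table of raw counts, 1 whole number per gene and library, and each column was matched to its sample by the description. Per the submitters' processing notes, GRCh38 and FastQC 0.10.1 were used. How reads were aligned and counted, including strand and reads with several matches, is not given in the sources used here. All 58735 identifiers were found in GENCODE release 29, and 58207 had a symbol. Genes were compared with edgeR 4.0.16 in R 4.3.3 (robust quasi-likelihood test, TMM scaling, filterByExpr at a count of 10 or more and a total of 15 or more), with Benjamini-Hochberg adjustment over all 16250 genes tested. Fold changes are ICAM1-high over ICAM1-low. The common dispersion of 0.00133 corresponds to a 3.6% coefficient of variation among replicate libraries. Counts were also scaled to the summed mitochondrial messenger RNAs. Shares and ratios were compared by exact two-sided permutation. The alternatives included library size only, other filters, DESeq2 1.42.0, limma-voom (limma 3.58.1), a replicate block and omission of each library. The fit was checked on simulated counts, with 50 genes changed at each fold size. It recovered 4.0% of 1.1-fold, 38.0% of 1.25-fold, 78.0% of 1.5-fold and 90.0% of 2.0-fold changes. Of its 114 calls, 9 (7.9%) were false. The changed genes were few among the 15892 simulated, and went up and down in equal number. In the data 59.7% of genes were called, so this check did not test the choice of scaling. The members and the gene lists were chosen with earlier results of these data known. Nuclear genes named are the 4 with the smallest adjusted p of each list.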

Additional observations from a re-analysis of the deposited data

How the results depend on the processing

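All 20 mitochondrial genes called kept their direction in the alternatives to the TMM fit, up to 14 for each gene, and 9 kept their call in all of them; scaling to the messenger RNA sum, which called 0 messenger RNAs lower, is not among these. The 11 messenger RNAs were called in every alternative except library size only, which gave 6 lower and 2 higher and reversed MT-ND5 to 0.12 and MT-ND6 to 0.16 on the log2 scale; it called 4 transfer RNAs, 2 higher and 2 lower. With DESeq2, 1 ribosomal RNA was called and 0 higher, 3 transfer RNAs were called, 0 higher and 3 lower, 5 biogenesis regulators were called, and 1 messenger RNA was lower relative to the messenger RNA sum, as it was with limma-voom. At an adjusted p under 0.01, 3 transfer RNAs were called, 0 higher and 3 lower, and 0 messenger RNAs differed relative to their sum. The replicate numbers do not show a pairing, with a correlation of 0.042 between deviations of libraries of the same number. With the replicate block, 11 messenger RNAs and 6 transfer RNAs were called, and 0 messenger RNAs differed, 0 of them higher, relative to their sum. Leaving out each library in turn gave 11 to 12 messenger RNAs called, 1 to 2 ribosomal RNAs (0 to 1 higher), 3 to 7 transfer RNAs (0 to 3 higher, 3 to 5 lower), 5 to 8 biogenesis regulators, 27 to 39 nuclear respiratory chain genes, and 0 to 1 messenger RNA higher relative to the sum. These fits take the spread of the lone library from the other subset. The cause of these changes was not tested. Of 19 shares and ratios, 16 kept their direction without any 1 library, and 3 that overlapped between subsets did not: MT-ATP8 over MT-ATP6 (-0.000583 without ICAM1-high replicate 2), MT-ND4L over MT-ND4 (-0.000504 without ICAM1-high replicate 1) and the percent of MT-CO1 (-0.0499 without ICAM1-low replicate 1). Low counts limit the transfer RNAs, of which 2 could not be tested.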
